A study of Mus musculus with 141 samples.

Results

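Naive mouse CD4 T cells that were activated without cytokines were followed over a single step of their culture, the 6 h that separate 12 h of stimulation from 6 h. The members are the 6 libraries of that step, chosen by condition and time from the labels: 3 of 12 h and 3 of 6 h, out of 57 libraries in courses 1 to 3 and 141 in the series. The cells were T helper precursors that had not met antigen, sorted as CD4+CD25-CD44lo from spleen and lymph nodes of wild-type C57BL/6 mice, an inbred strain, and stimulated with antibodies against CD3 and CD28 fixed to the plate. The 12 h and the 6 h groups without cytokines are called Th0 by the submitters and carry no agent beyond these antibodies. The sister cultures, used for the same step, also received IL6 and TGFb, and were again 3 libraries of 12 h and 3 of 6 h. The labels call the libraries biological replicates and number them as courses. Whether libraries of a course came from shared mice or dishes is not stated there, so p-values measure the spread between libraries only. Unless another fit is named, that spread was estimated from all 57 libraries of courses 1 to 3, other times included. Total RNA was sequenced, and the level of a gene is given in CPM, its reads per 1000000 reads of the library, after scaling by the trimmed mean of M-values (TMM). The values are shares of each library, so a change in the total amount of RNA per cell is not seen.

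Antigen receptor and CD28 signals start a fixed order of events in a naive T cell. Immediate early transcription factors and NF-kB targets come first, then MYC-driven growth in ribosomes and metabolism, and only after many hours do cells pass the restriction point of G1 and enter S phase. At that point E2F factors are freed from RB proteins and switch on the genes that copy DNA. The interval from 6 to 12 h lies between the early response and the first cell division.

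The 6 libraries held 22.8 to 27.1 M reads, so 1 read was worth 0.0369 to 0.0438 CPM. Genes of T cells were abundant in all of them. The 10 T cell markers (Cd4, the CD3 chains, Lck and others) summed to 2912 to 3344 CPM at 12 h and 2577 to 3038 CPM at 6 h, against 13.8 to 18.9 CPM at 12 h and 8.53 to 11.6 CPM at 6 h for Cd8a with Cd8b1. On the log2 scale, libraries lay 0.122 to 0.163 (root mean square over genes) from the mean of their own group, against a median of 0.158 over the 57 libraries. The largest of these belonged to the 12 h library of course 2. Its squared differences from the 12 h libraries of courses 1 and 3 averaged 12.7 and 9.46 times Poisson noise, against 3.75 between those 2 and 5.19 to 8.23 among the 6 h libraries.

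Between 12 h and 6 h, 5176 of 14695 tested genes passed the test (limma, adjusted p under 0.05), which is 35.2% of them. The level was higher at 12 h for 2898 genes (19.7%) and lower for 2278 (15.5%). A change of at least 2-fold was called for 452 genes that rose (3.08%) and 386 that fell (2.63%). Over all tested genes the median log2 change came to -0.00. The 12 h and 6 h groups did not overlap for 8299 of them (56.5%), so a lack of overlap alone does not set a gene apart. The lists below were read against these shares. A fit of only the 6 libraries, called the 6-library fit below, had a higher background. It called 4034 of the 14695 genes higher and 3312 lower, and its counts are to be read against those.

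**Figure D1:**
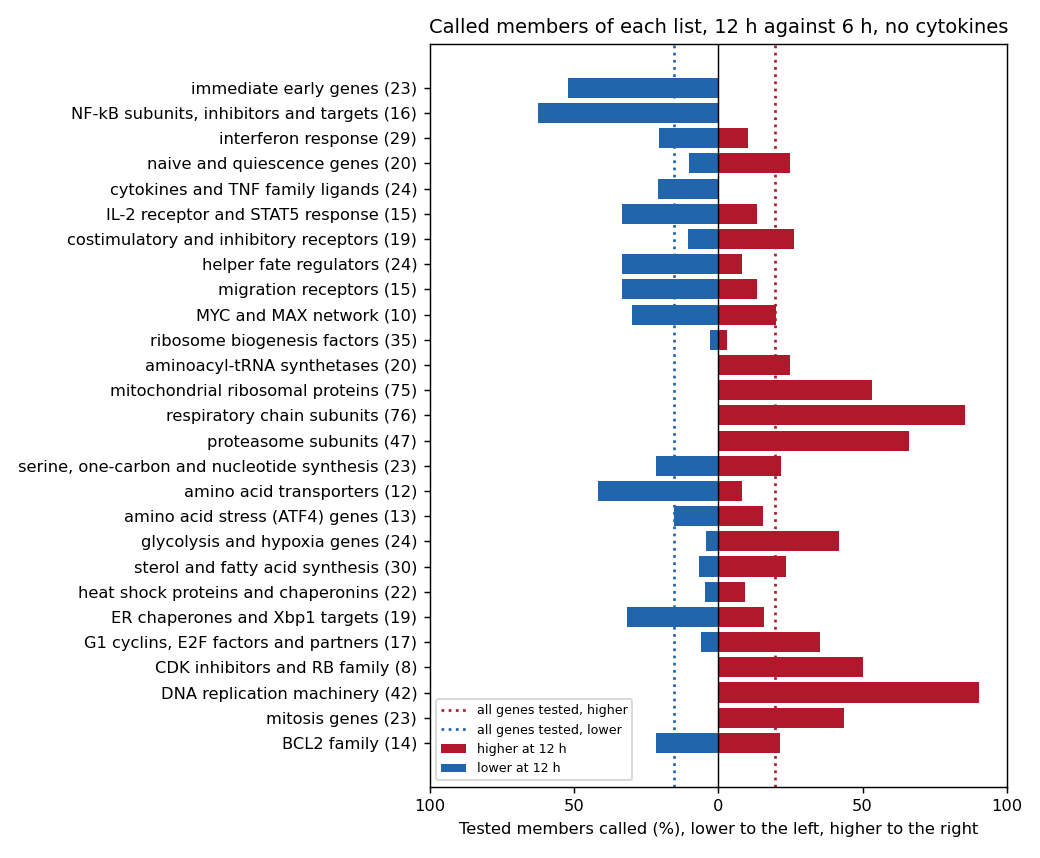
Bars give the percentage of tested members of each gene list that were called higher (right, red) or lower (left, blue) at 12 h than at 6 h without cytokines; the number tested is in brackets and dotted lines mark the shares over all genes tested. DNA replication machinery (38 of 42) and respiratory chain subunits (65 of 76) reach farthest to the right, and NF-kB genes (10 of 16) and immediate early genes (12 of 23) farthest to the left.

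The machinery that copies DNA was the list with the highest share of calls. Of 42 tested genes, 38 rose and 0 fell, 28 of them by at least 2-fold, and the median log2 change was 1.17. The count of 38 was the same with edgeR, with DESeq2, with only the 6 libraries fitted, with a replicate block, without the 72 h group, without TMM, without the filter and with each of the 6 libraries left out. Mcm3, a subunit of the MCM helicase that unwinds DNA, had 299.6, 338 and 272 CPM at 12 h, against 74.4, 70.0 and 69.9 CPM at 6 h (log2 change 2.07 ± 0.10 SE, adjusted p = 6.78e-20). Mcm5 of the same ring had 302, 333 and 283 CPM at 12 h, against 97.6, 86.9 and 95.1 CPM at 6 h (1.71 ± 0.11, adjusted p = 6.18e-16). Both groups were tight, and the lowest 12 h library lay far above the highest 6 h library. Orc1, the largest subunit of the complex that marks replication origins, had 11.9, 13.1 and 12.6 CPM at 12 h and 1.77, 2.79 and 2.38 CPM at 6 h (2.23 ± 0.27, adjusted p = 1.13e-08). Uhrf1, which binds half-methylated DNA behind the fork, had 47.3, 54.2 and 44.5 CPM at 12 h, against 10.6, 11 and 7.66 CPM at 6 h (2.28 ± 0.28, adjusted p = 1.66e-08). Lig1, the ligase that joins Okazaki fragments, averaged 45.2 CPM at 12 h and 12.5 CPM at 6 h (1.81 ± 0.14). The 4 members that did not pass were Tk1 (-0.32), Pold2 (0.02), Pcna (0.04) and Gins3 (0.18).

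The promoters of these genes were searched for the E2F motif in 4 spellings, TTTCCCGC, TTTGGCGC, TTTCGCGC and TTTGCCGC, on both strands of a window from 250 bases before to 50 after the RefSeq start site. RefSeq promoters were matched for 33 of the 42 genes, and 14 of those 33 (42.4%) held a match, against 2.6% of 27025 genes in the table. Counted by promoter, the shares were 35.9% of 39 and 2.26% of 32851. A match describes the letters and is not a measured binding site. The promoters of the 3 called members with the largest rise that held the motif are shown 5′ to 3′ on the gene's strand, in RefSeq coordinates of GRCm38.p6, with the matches in capitals. Uhrf1 is at chr17:56304063-56304362 on the + strand, Orc1 at chr4:108579204-108579503 on the + strand and Mcm3 at chr1:20820263-20820562 on the - strand.
Uhrf1: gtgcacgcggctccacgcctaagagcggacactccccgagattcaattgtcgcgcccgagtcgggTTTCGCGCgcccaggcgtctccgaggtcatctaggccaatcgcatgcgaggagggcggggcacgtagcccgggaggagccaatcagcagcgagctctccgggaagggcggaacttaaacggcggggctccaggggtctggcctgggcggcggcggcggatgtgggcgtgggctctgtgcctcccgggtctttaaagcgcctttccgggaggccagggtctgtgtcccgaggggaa
Orc1: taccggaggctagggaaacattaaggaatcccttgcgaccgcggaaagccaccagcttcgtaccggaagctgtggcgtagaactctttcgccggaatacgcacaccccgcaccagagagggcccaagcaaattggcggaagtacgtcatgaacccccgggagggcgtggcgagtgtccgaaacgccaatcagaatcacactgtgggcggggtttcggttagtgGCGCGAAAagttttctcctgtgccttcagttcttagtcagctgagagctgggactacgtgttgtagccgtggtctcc
Mcm3: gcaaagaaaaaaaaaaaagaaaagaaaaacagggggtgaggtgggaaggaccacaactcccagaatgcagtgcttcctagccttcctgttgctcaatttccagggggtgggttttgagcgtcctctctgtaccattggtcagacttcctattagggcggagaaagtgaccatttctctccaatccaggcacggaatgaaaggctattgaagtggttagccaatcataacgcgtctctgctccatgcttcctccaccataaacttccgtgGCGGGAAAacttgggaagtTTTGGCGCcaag
The match begins 185 bases before the start site in Uhrf1 and 27 before it in Orc1, and Mcm3 has a pair beginning at bases 20 and 39 after it. The rises of these genes are those given above.

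Other genes of S phase were among the 12 largest rises of the 3740 genes that passed, averaged 5 CPM or more and had groups that did not overlap, predicted genes and clones left out. Chaf1a, a subunit of the factor that loads histones onto new DNA, had 19.9, 24.3 and 19.7 CPM at 12 h, against 2.13, 2.22 and 2.23 CPM at 6 h (log2 change 3.01 ± 0.24, adjusted p = 3.9e-13). Dtl, which directs the licensing factor Cdt1 to destruction, had 28, 31.6 and 22.7 CPM at 12 h and 2.87, 3.61 and 3.96 CPM at 6 h (2.81 ± 0.31, adjusted p = 1.37e-09). In both genes each 12 h library was several times above each 6 h library. The checkpoint kinase Chek1 (2.25 ± 0.21), the recombination ATPase Fignl1 (2.45 ± 0.31) and the chromatin remodeller Hells (2.23 ± 0.16) rose as well.

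Of 17 tested G1 cyclins, E2F factors and partners, 6 rose and 1 fell, with a median of 0.29. The largest rise among the 17 was that of Ccne1. This gene, the cyclin E that drives entry into S phase, had 5.35, 5.08 and 4.01 CPM at 12 h, against 1.58, 1.68 and 1.4 CPM at 6 h (1.37 ± 0.22, adjusted p = 2.19e-06). Its kinase partner Cdk2 (0.75 ± 0.14), E2f1 (0.70 ± 0.16) and E2f3 (0.54 ± 0.12) also rose. Ccnd2, the cyclin D2 of early G1, had 1833, 2012 and 1804 CPM at 12 h and 2401, 2153 and 2164 CPM at 6 h, without overlap, and did not pass (-0.25 ± 0.15, adjusted p = 0.194). It passed in the limma fit of only the 6 libraries (adjusted p = 0.0234), but not with a replicate block in that fit (adjusted p = 0.0806). The single gene that fell was Ccne2, outside the naming rule and picked after its values were seen (-0.55); it was not called without the 12 h library of course 1, and 2 members were called lower without that of course 3. Among 8 CDK inhibitors and RB family members, 4 rose and 0 fell: the RB relatives Rbl1 (1.44 ± 0.21) and Rbl2 (0.96 ± 0.16), Rb1 itself (0.62 ± 0.13) and the CDK4 inhibitor Cdkn2c (0.72). The inhibitor p27, Cdkn1b, had 27.7, 20.1 and 24.6 CPM at 12 h, against 18.8, 20.6 and 14.5 CPM at 6 h, which overlap (0.42 ± 0.24, adjusted p = 0.179).

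Of 23 mitosis genes, 10 rose and 0 fell, 6 of them by at least 2-fold, with a median of 0.50; without the 6 h library of course 1 the counts were 8 and 1. Top2a, the topoisomerase that untangles chromosomes, had 18.5, 24.5 and 19 CPM at 12 h, against 6.14, 7.43 and 6.64 CPM at 6 h (1.54 ± 0.28, adjusted p = 2.42e-05). The spindle checkpoint kinase Bub1b rose by 1.36 ± 0.22. The levels stayed far under those of later times: Top2a averaged 866 CPM at 24 h and 1997 CPM at 72 h, where Mcm5 averaged 760 CPM and 469 CPM. Relative to 0 h, on the log2 scale, the mitosis list had a median of -0.52 at 6 h, which became -0.03 by 12 h and 4.59 by 24 h. For DNA replication machinery the same medians were 0.08, 1.28 and 3.20.

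**Figure D2:**
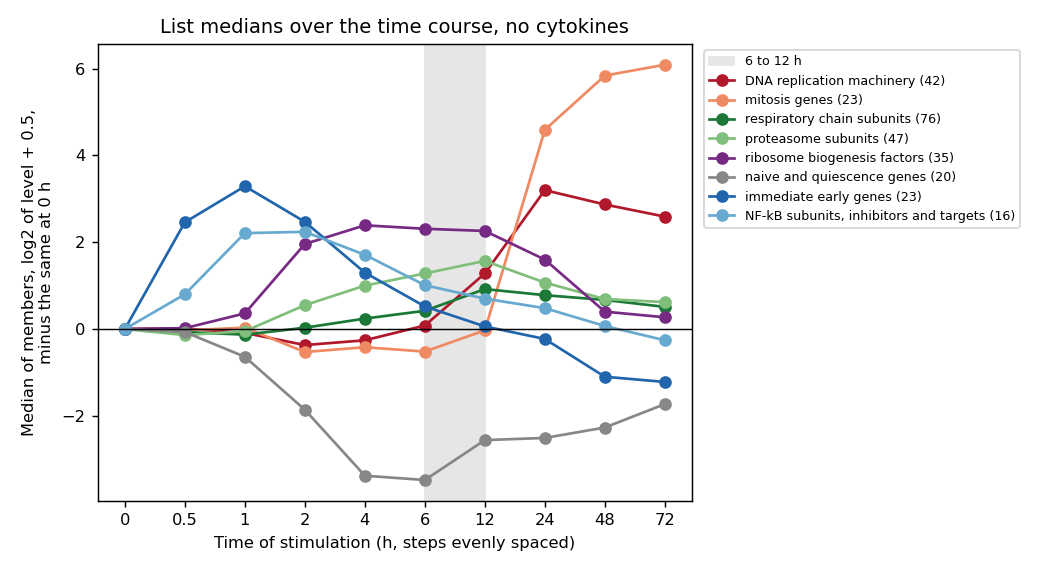
Lines give the median over tested members of 8 gene lists at each time without cytokines, as log2 of the level plus 0.5 minus its value at 0 h (3 libraries a time, times evenly spaced); the grey band is the step from 6 to 12 h. Inside the band the replication list goes up to 1.28 and the respiratory list to 0.92, immediate early genes come down to 0.06 and ribosome biogenesis is nearly level at 2.26. Different members of a list can set its median at different times.

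Nuclear genes of mitochondria and genes of the proteasome rose broadly and by small amounts. Of 76 tested subunits of the respiratory chain and ATP synthase encoded in the nucleus, 65 rose and 0 fell, and all 76 had a log2 change above 0 (median 0.51). The changes ran from 0.01 to 1.11 on the log2 scale, and 1 member passed 2-fold. Ndufb10, a subunit of complex I, had 49.8, 46.3 and 44.1 CPM at 12 h, against 21.7, 20.9 and 21.3 CPM at 6 h (1.11 ± 0.12, adjusted p = 6.35e-10). Ndufb3 (0.93 ± 0.12) and Ndufs5 (0.85 ± 0.12) of complex I and Atp5g2, a subunit of the ATP synthase ring (0.92 ± 0.10), followed. Of 75 mitochondrial ribosomal proteins, 40 rose and 0 fell (median 0.28), with Mrpl4 at 64.8, 67.9 and 63.7 CPM at 12 h and 39.1, 37.2 and 34.7 CPM at 6 h (0.82 ± 0.08, adjusted p = 2.72e-11). Of 47 proteasome subunits and regulators, 31 rose and 0 fell (median 0.29), among them the core subunits Psma1 (0.60 ± 0.09) and Psmb1 (0.50 ± 0.08). The 37 genes of the mitochondrial genome itself are listed at 0 in every library, so its transcripts could not be set beside these.

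Ndufb10 had been lower at 4 h than at 0 h. It averaged 51.3 CPM at 0 h, 17.3 CPM at 4 h, 21.3 CPM at 6 h and 46.7 CPM at 12 h. The median of the list relative to 0 h, on the log2 scale, was -0.13 at 1 h, 0.24 at 4 h, 0.42 at 6 h and 0.92 at 12 h, and 7 of 76 members were under their 0 h mean at 12 h and 19 at 6 h.

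Ribosome biogenesis factors, whose list median at 6 h was 2.31 above 0 h on the log2 scale, changed little. Of 35 ribosome biogenesis factors, 1 rose and 1 fell, with a median of -0.05. Npm1, nucleophosmin, had 2922, 3277 and 2801 CPM at 12 h, against 2502, 2188 and 2185 CPM at 6 h (0.39 ± 0.15, adjusted p = 0.0335), and Noc4l, which matures the small ribosomal subunit, fell by 0.31 ± 0.12 on the log2 scale. Npm1 lost its call without the 12 h library of course 1 or 2 or the 6 h library of course 2 or 3, and Noc4l kept its call only when the 12 h library of course 2 was the one left out. A fit of the 6 libraries alone called 2 higher and 8 lower, where it called 4034 and 3312 of all 14695 genes. Myc, which drives this programme, had 807, 1069 and 843 CPM at 12 h and 1207, 1171 and 1212 CPM at 6 h, without overlap (-0.41 ± 0.19, adjusted p = 0.0889). It passed in the 6-library fit (adjusted p = 0.0151) and without the 12 h library of course 2. In its network of 10 genes, 2 rose and 3 fell: Mnt (-1.12 ± 0.14), Mga (-0.66 ± 0.08) and Mlxip (-0.51 ± 0.13), which bind MAX or MLX, were lower, and the repressor Mxd4 was higher (1.08 ± 0.30). Without the 6 h library of course 3 the count that rose was 1. Of 20 cytosolic aminoacyl-tRNA synthetases, 5 rose and 0 fell (median 0.18), where 19.7% of all tested genes rose and 15.5% fell. Mars (0.49 ± 0.12), Qars (0.47 ± 0.07) and Aars (0.45 ± 0.10) led the 5. The count that rose was 11 in the 6-library fit. It was 3 without the 12 h library of course 1, the 12 h library of course 2 or the 6 h library of course 2.

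Some enzymes of glycolysis rose. Of 24 glycolysis and hypoxia genes, 10 rose, 1 fell and 13 did not pass (median 0.26), and 7 or 8 rose when any of the 6 libraries was left out. Gapdh had 793, 844 and 766 CPM at 12 h, against 375, 333 and 330.3 CPM at 6 h (1.21 ± 0.11, adjusted p = 9.57e-12). Tpi1, triose phosphate isomerase (1.43 ± 0.25), Pfkm, a phosphofructokinase (1.32 ± 0.14), and Eno1, enolase (1.07 ± 0.10), rose by more than 2-fold as well. The gene that fell was Hif1a, the oxygen-regulated transcription factor, with 308, 275 and 279 CPM at 12 h and 421, 385 and 386 CPM at 6 h (-0.47 ± 0.13, adjusted p = 0.00488). Slc2a1, the glucose transporter GLUT1, had 70.5, 76.4 and 64.4 CPM at 12 h and 74.5, 69.3 and 68.6 CPM at 6 h, which overlap (-0.01 ± 0.21, adjusted p = 0.982).

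More amino acid transporters fell than rose. Of 12, 5 fell and 1 rose (median -0.30). The cationic amino acid transporter Slc7a1 had 468, 575 and 491 CPM at 12 h, against 946, 958 and 1071 CPM at 6 h (-0.96 ± 0.18, adjusted p = 2.97e-05), and the glutamine carrier Slc1a5 fell by 0.79 ± 0.20 on the log2 scale. Slc43a3, which carries purine bases, rose (0.71 ± 0.15). In serine, one-carbon and nucleotide synthesis 5 of 23 rose and 5 fell, where 19.7% of all tested genes rose and 15.5% fell. The mitochondrial serine enzyme Shmt2 fell to 447, 515 and 442 CPM at 12 h, against 764, 669.9 and 699.8 CPM at 6 h (-0.61 ± 0.10, adjusted p = 1.02e-05), while Atic, which closes the purine ring, rose (0.60 ± 0.14). The 5 that fell became 1 to 3 when the 12 h or the 6 h library of course 1 or 3 was left out. In sterol and fatty acid synthesis 7 of 30 rose and 2 fell (median 0.08), against the same shares of all tested genes. Scd2, a desaturase (1.28 ± 0.26), Elovl6, an elongase (1.15 ± 0.21), Mvk, mevalonate kinase (1.14 ± 0.16) and Dhcr7 (1.02 ± 0.11) were higher. Insig1, which keeps SREBP factors in the ER (-0.67 ± 0.14), was lower. In the 6-library fit the counts were 12 and 4. The 2 that fell became 4 without the 12 h library of course 2, and 1 without the 12 h library of course 1 or 3 or the 6 h library of course 1.

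**Figure D3:**
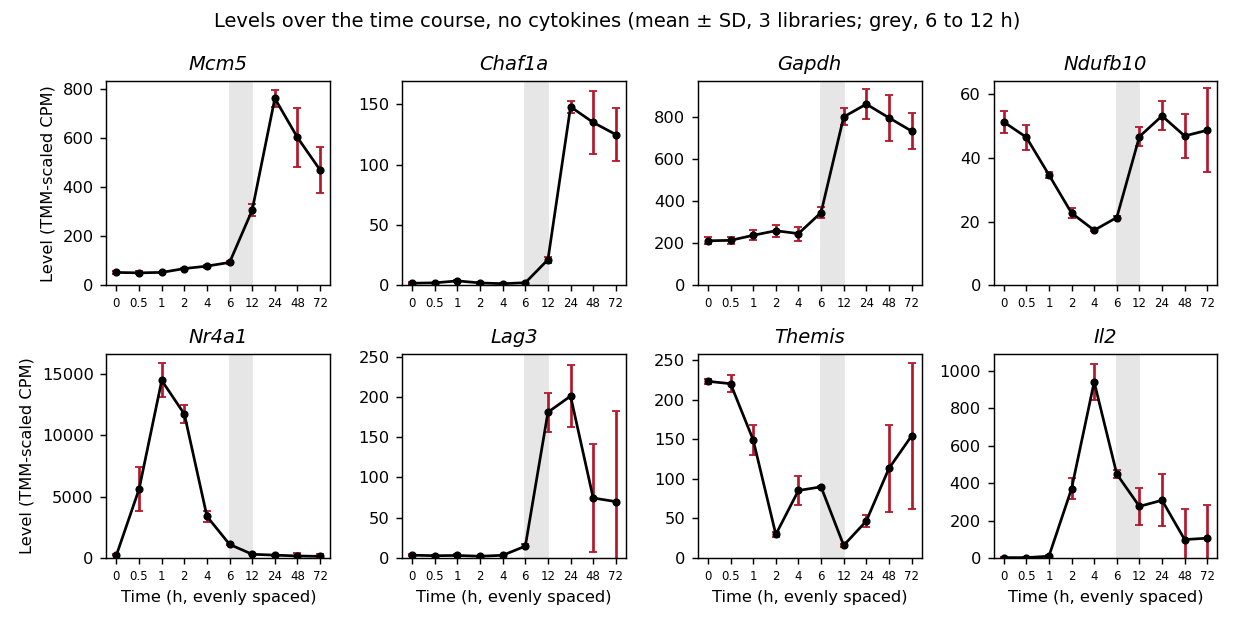
Levels of 8 genes over the time course without cytokines, as mean ± SD of 3 libraries in TMM-scaled CPM against time (evenly spaced; error bars are cut at 0), with the step from 6 to 12 h in grey. Mcm5, Chaf1a, Gapdh, Ndufb10 and Lag3 climb inside the band, and Nr4a1, Themis and Il2 come down inside it.

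Most genes of the first response to the receptor fell. Of 23 immediate early genes, 12 fell and 0 rose, 9 by at least 2-fold, and all 23 had a log2 change below 0 (median -0.93). Nr4a1, an orphan receptor induced by antigen receptor signals, had 302, 312 and 294 CPM at 12 h, against 1123, 1055 and 1146 CPM at 6 h (-1.87 ± 0.51, adjusted p = 0.00357), after a mean of 14479.7 CPM at 1 h. Its relatives Nr4a2 (-1.96 ± 0.54) and Nr4a3 (-1.87 ± 0.57) and the MAP kinase phosphatase Dusp1 (-1.80 ± 0.17) were lower too. The early surface marker Cd69 had 404, 447 and 394 CPM at 12 h and 846, 817 and 886 CPM at 6 h (-1.03 ± 0.26, adjusted p = 0.00135). Egr2 had 82.4, 105 and 89.4 CPM at 12 h, against 162, 193 and 199 CPM at 6 h, without overlap, but did not pass in the fit of all times (-1.0 ± 0.60, adjusted p = 0.213). With only the 6 libraries in the fit it did (adjusted p = 0.000513). In that fit 21 of the 23 genes were called lower, against 3312 of all 14695.

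Most genes of the NF-kB system fell with them. Of 16, 10 fell and 0 rose (median -0.74), and 15 had a log2 change below 0. The 10 became 7 to 9 when any of the 6 libraries was left out, 8 without the filter and 15 in the 6-library fit. Nfkbid, an inhibitor-like partner, had 185, 212 and 166 CPM at 12 h, against 537, 509.8 and 565 CPM at 6 h (-1.52 ± 0.37, adjusted p = 0.00117). The surface marker Cd83 (-1.80 ± 0.48) and the A20 deubiquitinase Tnfaip3 (-1.27 ± 0.40) were lower, as was Bcl3 (-1.39 ± 0.45), whose call was lost without the 12 h library of course 2 or the 6 h library of course 1.

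Among 24 tested cytokines and TNF family ligands, 5 fell and 0 rose (median -0.35), where 15.5% of all tested genes fell and 19.7% rose. Tnf had 176, 204 and 182 CPM at 12 h, against 352, 339 and 388 CPM at 6 h (-0.94 ± 0.15, adjusted p = 4.22e-06). The chemokine Xcl1 had 2.47, 9.49 and 2.97 CPM at 12 h, the high value being course 2, and 14.9, 22.1 and 20.9 CPM at 6 h (-2.06 ± 0.33). Tnfsf14, or LIGHT, fell by 1.71 ± 0.50 on the log2 scale. Il2, the growth factor that activated T cells make for themselves, had 228, 391 and 209 CPM at 12 h and 453, 427 and 466 CPM at 6 h (-0.76 ± 1.05, adjusted p = 0.64); the groups did not overlap, and the 6-library fit gave an adjusted p of 0.0227. The fit shares a spread over all times, and Il2 averaged 309 ± 138 CPM at 24 h, 98.5 ± 163 CPM at 48 h and 106 ± 178 CPM at 72 h (SD, n = 3 each). Ifng had 0.337, 0.437 and 0.62 CPM at 12 h and 0.625, 1.04 and 1.21 CPM at 6 h (-0.58 ± 0.35, adjusted p = 0.201, and 0.0425 in the 6-library fit). In the 6-library fit the count of ligands that fell was 10, and it was 3 without the 12 h library of course 3 or the 6 h library of course 2.

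The IL-2 receptor and STAT5 list held 15 genes, of which 5 fell and 2 rose (median -0.46). Pim2, a survival kinase, had 119, 90.4 and 108 CPM at 12 h, against 37.7, 33.6 and 35.8 CPM at 6 h (1.55 ± 0.23, adjusted p = 7.05e-07). Stat5a, the signal transducer itself, had 199, 272 and 211 CPM at 12 h and 390.1, 368 and 409 CPM at 6 h (-0.79 ± 0.22, adjusted p = 0.00433). Il2ra, the high affinity receptor chain CD25, had 598, 699.7 and 632 CPM at 12 h, against 887, 821 and 977 CPM at 6 h, without overlap (-0.48 ± 0.38, adjusted p = 0.368, and 0.00393 in the 6-library fit). The 5 that fell became 2 or 3 when any of the 6 libraries was left out, and 8 in the 6-library fit; the 2 that rose became 1 without the 12 h library of course 1 or the 6 h library of course 2.

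The largest rise of all tested genes was that of an inhibitory receptor. Lag3, which binds MHC class II and restrains T cells, had 202, 154 and 186 CPM at 12 h, against 18, 13.1 and 12.9 CPM at 6 h (3.59 ± 0.65, adjusted p = 2.25e-05). Its mean was 3.34 CPM at 4 h and 201 CPM at 24 h. Ctla4, the competitor of CD28, had 24.9, 18.9 and 19.7 CPM at 12 h and 6.47, 5.79 and 8.15 CPM at 6 h (1.57 ± 0.20, adjusted p = 3.64e-08). The list of 19 costimulatory and inhibitory receptors had a median of 0.07. In it 5 genes rose, Cd226 (1.17 ± 0.32) among them, and 2 fell, where 19.7% of all tested genes rose and 15.5% fell. Icos, a costimulatory receptor of the CD28 family, fell (-0.97 ± 0.25), and the other, Tnfrsf9 or 4-1BB (-1.23 ± 0.48), lost its call whichever of the 6 libraries was left out. With the 72 h group left out of the fit 8 rose, and in the 6-library fit 9.

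More regulators of helper fate fell than rose. Of 24, 8 fell and 2 rose (median -0.35); 1 rose without the 12 h or the 6 h library of course 2. Rora, a nuclear receptor of the Th17 programme, had 5.73, 8.77 and 5.21 CPM at 12 h, against 21.9, 23.9 and 29.9 CPM at 6 h (-1.88 ± 0.25, adjusted p = 1.02e-07). Bcl6, the regulator of follicular helper cells, had 25.1, 25.6 and 28.2 CPM at 12 h and 65.2, 62.5 and 64.8 CPM at 6 h (-1.27 ± 0.33, adjusted p = 0.00184). Runx1 fell by 1.33 ± 0.18 on the log2 scale. Gata3, the regulator of Th2 cells, had 16.2, 16.7 and 15.5 CPM at 12 h, against 30.8, 30.2 and 26.7 CPM at 6 h (-0.84 ± 0.16, adjusted p = 4.03e-05). Tbx21, the Th1 regulator T-bet, had 1.24, 1.07 and 1.16 CPM at 12 h and 1.25, 1.11 and 3.06 CPM at 6 h (-0.38 ± 0.61, adjusted p = 0.688). Foxp3 had at most 3.72 CPM at 12 h and 8.41 CPM at 6 h (-0.98 ± 0.58, adjusted p = 0.194). Irf4, set by receptor signal strength, had 2586, 2378 and 2369 CPM at 12 h and 3224, 2996 and 2871 CPM at 6 h, without overlap (-0.31 ± 0.43, adjusted p = 0.635, and 0.0106 in the 6-library fit). Prdm1, which encodes Blimp1, passed at very low levels, at most 0.635 CPM at 12 h and 1.57 CPM at 6 h (-0.90 ± 0.32, adjusted p = 0.0225). It did not pass with a pseudocount of 2, nor without the 12 h library of course 1 or 3 or the 6 h library of course 1 or 2. Zbtb7b, the ThPOK factor that keeps cells in the CD4 lineage, rose (0.69 ± 0.15).

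Genes of the naive state, 17 of 20 of which were under their 0 h mean at 12 h and 17 at 6 h, moved both ways. Of the 20, 5 rose and 2 fell (median -0.08), where 19.7% of all tested genes rose and 15.5% fell. The 2 became 5 in the 6-library fit, 4 without the 72 h group, and 1 without the 12 h library of course 2 or 3 or the 6 h library of course 2. The list's median relative to 0 h was -2.56 at 12 h and -3.48 at 6 h. Different members can set the median at each time, so these 2 values do not give a shared rise. From 6 to 12 h, 10 members had a log2 change above 0 and 10 below. Lef1, a factor of the T cell lineage that works with TCF1, had 210.0, 179 and 187 CPM at 12 h, against 129, 123 and 90.1 CPM at 6 h (0.76 ± 0.16, adjusted p = 0.000223), and had averaged 678 CPM at 0 h. The receptor chain Il6ra rose (1.10 ± 0.24), to a mean of 96.2 CPM at 12 h, against 44.3 CPM at 6 h. Il7r, the IL-7 receptor chain, fell to 3.03, 2.74 and 3.64 CPM at 12 h, against 9.23, 9.36 and 4.79 CPM at 6 h (-1.14 ± 0.33, adjusted p = 0.00524). Klf2, a factor that keeps naive cells recirculating, overlapped between the groups (-0.55 ± 0.63, adjusted p = 0.552). The homing receptor Cxcr4 fell to 2.06, 1.63 and 2.23 CPM at 12 h, against 10.7, 9.76 and 8.04 CPM at 6 h (-2.01 ± 0.25). In its list of 15 migration receptors 5 fell and 2 rose, with 0 called higher when the 12 h library of course 1 or the 6 h library of course 3 was left out, and 1 without the 12 h library of course 2 or 3 or the 6 h library of course 2.

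**Figure D4:**
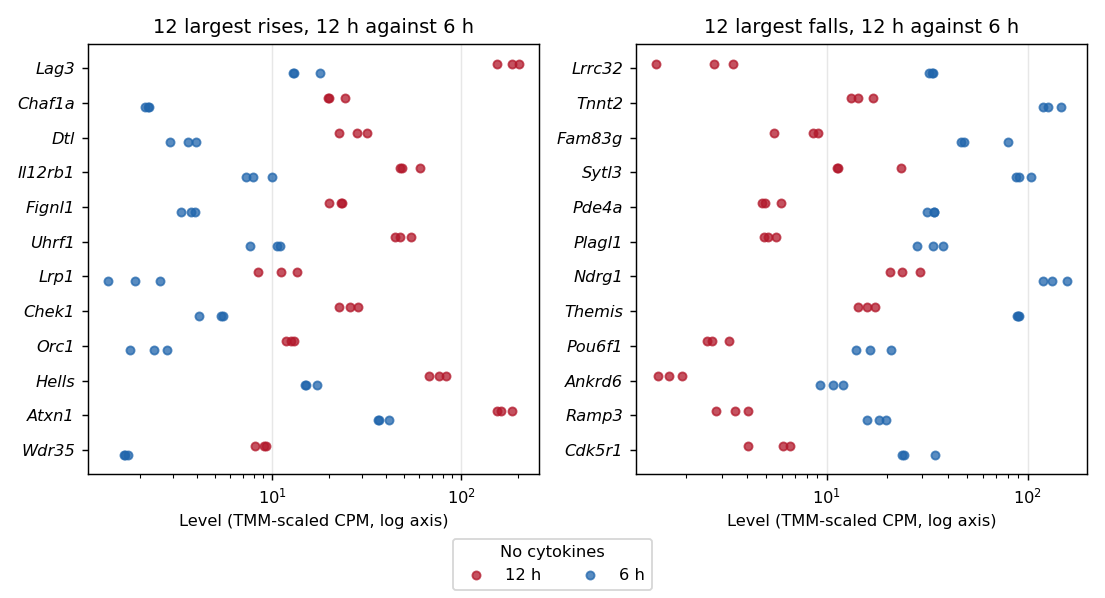
Each point is a library without cytokines, 12 h in red above 6 h in blue, on a log axis of TMM-scaled CPM, for the 12 genes with the largest rise (left) and the 12 with the largest fall (right) among 3740 that passed, averaged 5 CPM or more and did not overlap. The groups of no gene overlap, and Lag3 (154 to 202 against 12.9 to 18) and Lrrc32 (1.42 to 3.43 against 32.3 to 33.7) are farthest apart.

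The 12 largest falls of the same 3740 genes held few members of the lists. Lrrc32, which encodes GARP, the surface dock of latent TGF-beta, had 1.42, 2.74 and 3.43 CPM at 12 h, against 32.3, 33.5 and 33.7 CPM at 6 h (-3.53 ± 0.72, adjusted p = 0.000119). Tnnt2, the cardiac form of troponin T, had 14.4, 17 and 13.2 CPM at 12 h and 146, 119 and 126 CPM at 6 h (-3.09 ± 0.23, adjusted p = 7.95e-14). Lrrc32 averaged 2.66 CPM at 0 h, 77 CPM at 4 h, 2.29 CPM at 24 h and, with a wide spread, 67.3 ± 57.8 CPM at 72 h (SD, n = 3). Tnnt2 averaged 0.466 CPM at 0 h, 97 CPM at 4 h and 3.5 CPM at 24 h. Ndrg1, a stress-induced gene, had 20.6, 23.6 and 29.2 CPM at 12 h, against 132, 119.9 and 157 CPM at 6 h (-2.46 ± 0.28, adjusted p = 2.24e-09). Themis, an adaptor of T cell receptor signalling, had 17.5, 15.9 and 14.4 CPM at 12 h and 91.1, 90.1 and 88.2 CPM at 6 h (-2.46 ± 0.29, adjusted p = 8.76e-09), and its course had 2 low points, with means of 29.7 CPM at 2 h and 15.9 CPM at 12 h. Pde4a, which breaks down cyclic AMP, fell by 2.57 ± 0.28 on the log2 scale. The others were Fam83g (-2.83), Sytl3 (-2.66), Plagl1 (-2.56), Pou6f1 (-2.39), Ankrd6 (-2.37), Ramp3 (-2.23) and Cdk5r1 (-2.22). Among the rises outside the cell cycle, Il12rb1, the chain shared by the IL-12 and IL-23 receptors, had 47.3, 60.4 and 48.9 CPM at 12 h, against 7.95, 7.25 and 10 CPM at 6 h (2.57 ± 0.41, adjusted p = 2.64e-06). Atxn1 (2.12 ± 0.29), Lrp1, an endocytic receptor (2.26 ± 0.24), and Wdr35, a part of ciliary transport (2.10 ± 0.21), completed the list. All 24 genes, picked for the size of their change in these libraries, kept their call and sign in each of the 17 alternatives.

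The same step in the sister cultures with IL6 and TGFb differed for few genes. The difference of the steps, no cytokines minus IL6 and TGFb, passed for 156 of 14695 genes (1.06%), 53 above 0 and 103 below. No member of the DNA replication (42 tested), mitosis (23), respiratory chain (76) or ribosome biogenesis (35) lists was among them. At the share of 1.06%, lists of these sizes would hold few called members or none, so this does not set them apart. Mcm5 rose by 1.71 without cytokines and 1.54 with them (difference 0.16, adjusted p = 1). Counts of this difference depend on the spread used: 638 genes passed when only the 12 libraries compared were fitted. The list with the most members was helper fate regulators, 6 of 24, all below 0.

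Rora had the largest difference among the 60 of these genes that were also among the 3740 that passed without overlap in the step without cytokines. It fell without cytokines, as given above, and with IL6 and TGFb it had 500.1, 476 and 396 CPM at 12 h, against 279.6, 318 and 235 CPM at 6 h (difference -2.61 ± 0.36, adjusted p = 7.06e-06). Runx1 also differed (-1.46, adjusted p = 0.000418), with a log2 change of -1.33 without cytokines and 0.13 with them. Furin, a protease that activates TGF-beta among other precursors, had 187, 222 and 179 CPM at 12 h and 326, 314 and 353 CPM at 6 h without cytokines. With IL6 and TGFb it had 951, 1103 and 797 CPM at 12 h and 519, 534 and 498 CPM at 6 h (difference -1.62 ± 0.29, adjusted p = 0.000722). The protease Adam19 (-2.07 ± 0.39), Jun (-2.09 ± 0.38) and Id2, an inhibitor of E proteins (-1.72 ± 0.37), had the same arrangement: lower at 12 h than at 6 h without cytokines, higher with them.

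Genes on the other side rose, or fell less, without cytokines. Vav3, a signalling protein of the Vav family, had 25.7, 17.3 and 20.7 CPM at 12 h and 7.87, 7.97 and 6.08 CPM at 6 h without cytokines, and 4.75 to 7.46 CPM in the 6 libraries with them (difference 1.58 ± 0.28, adjusted p = 0.000473). Tmem154 had a difference of 1.51 ± 0.20 (adjusted p = 5.79e-06). Bcl2l11, which encodes the death factor BIM, fell in both, by 0.83 on the log2 scale without cytokines and by 2.19 with them (difference 1.35 ± 0.25, adjusted p = 0.00106). Slc7a11, the cystine transporter, fell by 1.39 without cytokines and by 3.55 with them (difference 2.15 ± 0.46, adjusted p = 0.00581); its 6 h library of course 3 was high in both cultures, and this difference was not called without the IL6 and TGFb library of 6 h in course 3. Ctla4 rose by 1.57 without cytokines and 2.84 with them (difference -1.26, adjusted p = 0.00949), and that call was lost in 3 of the alternatives that leave out a library. Lag3 rose by 3.59 and 1.49 (difference 2.09, adjusted p = 0.615).

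**Figure D5:**
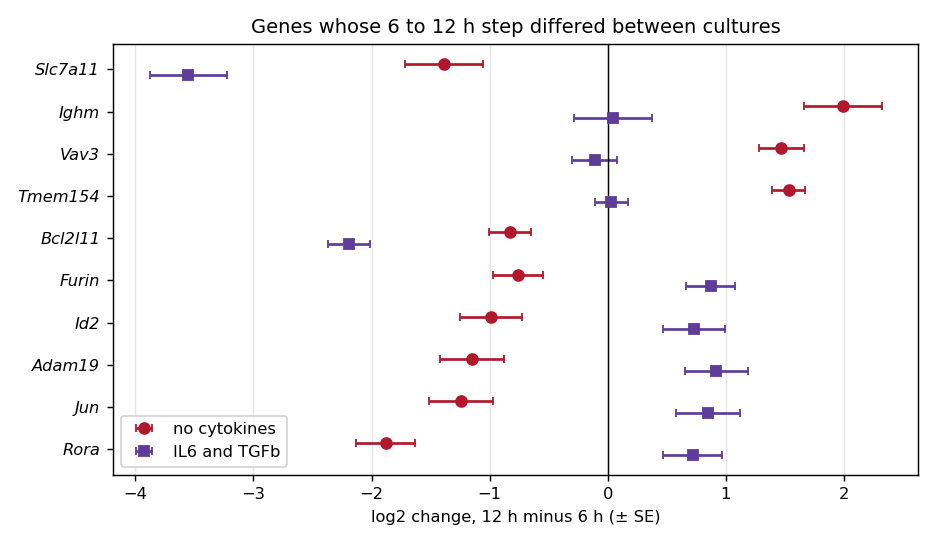
Points give the log2 change from 6 to 12 h with its SE, without cytokines (circles, upper) and with IL6 and TGFb (squares, lower). The 10 genes are those named for the 5 largest and 5 smallest differences of the step. Furin, Id2, Adam19, Jun and Rora lie left of 0 without cytokines and right of 0 with IL6 and TGFb, and Slc7a11 and Bcl2l11 lie left of 0 in both.

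Markers of T cells and of other cells moved within the step. In bulk RNA, fewer cells of a type and less RNA per cell cannot be told apart. Cd4 had 688, 561 and 569 CPM at 12 h, against 339, 281 and 224 CPM at 6 h (1.12 ± 0.12, adjusted p = 7.38e-10), and had averaged 1057 CPM at 0 h. Of the 10 T cell markers 5 rose, Cd247 (0.88 ± 0.13) and Cd3d (0.49 ± 0.10) among them, and 2 fell, Thy1 (-1.31 ± 0.29) and Lat (-0.22 ± 0.07), the second not without the 12 h library of course 3 or the 6 h library of course 2. Ighm, the immunoglobulin mu gene, had 154, 109 and 141 CPM at 12 h and 32.1, 36.6 and 30.9 CPM at 6 h (1.99 ± 0.33, adjusted p = 4.22e-06), and its step differed from that with IL6 and TGFb, where it had 21.8 to 29.1 CPM in all 6 libraries (difference 1.95 ± 0.46, adjusted p = 0.0165). That difference was not called without the 12 h library of course 1 without cytokines, nor without that of course 2 with IL6 and TGFb. The other B cell markers did not move with it: without Ighm they summed to 3.21 to 7.06 CPM at 12 h and 4.34 to 7.06 CPM at 6 h, and 6 of the 10 were under 1 CPM in all 6 libraries. Cd8b1 rose (0.68 ± 0.15), and Cd8a did not pass (-0.12). The 15 myeloid and dendritic markers summed to 3.78 to 5.95 CPM at 12 h and 8.46 to 11.1 CPM at 6 h, with 12 of them under 1 CPM and Cd209a at 0. The 10 red cell and platelet markers summed to 7.49 to 9.29 CPM at 12 h and 15.3 to 21.5 CPM at 6 h, where 5 of 7 tested fell and Pf4 and Ppbp were at 0; without the 6 h library of course 2 the 5 became 2. All 8 NK and gamma-delta T markers were under 1 CPM. The part of these cells in other genes' changes was not tested.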

How the data were processed

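RNA sequencing values were deposited by the authors as a single table whose columns each sum to 1000000, that is, CPM; 0 columns went unmatched. The submitters' processing notes name TopHat, HTSeq, mm9 and GRCh37, without versions, settings or steps, so no positions of the measured transcripts are given, and nothing says whether counting used strand. Whole reads were recovered for 100% of values (tolerance 0.001). Levels were scaled by TMM and taken as log2 after adding 0.5 CPM. The limma-trend test covered 14695 genes that reached 1 CPM in 3 or more libraries, in 1 fit of all 19 groups of courses 1 to 3 (57 libraries, 38 residual degrees of freedom), with Benjamini-Hochberg adjustment over all genes. Log2 changes understate those of genes near 1 CPM. edgeR and DESeq2 on the recovered counts were alternatives, as were no TMM scaling, pseudocounts of 0.1 and 2, no filter, a filter of 5 CPM, fewer libraries, a replicate block and leaving out each library. Tools were DESeq2 1.42.0, edgeR 4.0.16 and limma 3.58.1 under R 4.3.3. 0 columns were identical, and squared differences between replicates averaged 3.75 to 12.7 times Poisson noise.

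The comparison, the 33 gene lists and the naming rule were chosen with earlier results of these data known. Named were genes that passed, averaged 5 CPM or more over the 6 libraries and had groups that did not overlap, with predicted genes and clones passed over (3740 eligible): the 12 largest rises and falls, up to 4 of each list with up to 2 of its minority direction, the 5 largest and 5 smallest differences of the step, and 22 genes given whatever their test, 2 of which are not reported here. Members outside this rule that are named were picked after their values were seen. Hba-a1 and Hba-a2, like Hspa1a and Hspa1b, are near copies whose reads may be split or lost.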

Additional observations from a re-analysis of the deposited data

Results flagged for a closer look

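For 15 named genes the step from 6 to 12 h differed between cultures without cytokines and with IL6 and TGFb. The 10 given here are the 5 largest and 5 smallest differences under the naming rule. The difference itself was tested (limma, adjusted over all genes), with 3 libraries in each of 4 groups. Its spread was estimated from all 57 libraries of courses 1 to 3. Below 0, that is, with the lower log2 change without cytokines, were Rora (-2.61), Jun (-2.09), Adam19 (-2.07), Id2 (-1.72) and Furin (-1.62). Above 0 were Slc7a11 (2.15), Ighm (1.95), Vav3 (1.58), Tmem154 (1.51) and Bcl2l11 (1.35). Over 23 alternatives every value kept its sign. Of the 10, 8 passed in all of them. Of all 15, 10 did. The difference of Ighm ran from 1.84 to 2.09 and was not called in 2, without the 12 h library of course 1 without cytokines or without the 12 h library of course 2 with IL6 and TGFb. That of Slc7a11 ran from 1.67 to 2.55 and was not called in 2, with only the 12 libraries fitted or without the 6 h library of course 3 with IL6 and TGFb.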

How the results depend on the processing

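No named call of the step changed sign in any of the 17 alternatives, and 126 of 152 named calls stood in all of them. The 26 others lost their call in at least 1. Most named genes were picked for passing without overlap in these same libraries, which favours such stability. Of all 2898 higher and 2278 lower calls, 2217 and 1843 stood without the 6 h library of course 3. Without the 12 h library of course 1 they were 2382 and 1788. Counts of at least 2-fold changes, 452 higher and 386 lower in the main fit, moved with the scale. They were 248 and 197 with a pseudocount of 2, 642 and 651 with 0.1, 673 and 694 with edgeR, and 690 and 696 with DESeq2. The difference of the steps, called for 156 genes (53 and 103), gave 638 (277 and 361) with only the 12 libraries fitted, 240 (94 above 0) without the 72 h group, and 35 to 46 above 0 with a library left out (35 without IL6 and TGFb, 12 h, course 2). The cause was not tested. Same-numbered libraries did not all deviate together: over genes, the deviations of the 12 h and 6 h libraries without cytokines correlated at 0.212, -0.0563 and 0.22, so their numbers were not taken as pairs, and the 12 h library of course 2 correlated best with the 6 h library of course 1 (0.0391). Among the libraries of the difference, every same-numbered correlation was above 0.1 between 12 h and 6 h with IL6 and TGFb (0.222 to 0.295) and between cultures without and with these cytokines at 12 h (0.306 to 0.5), but not at 6 h (0.0209 to 0.46). With a replicate block 5330 genes were called (2966 and 2364), and 176 for the difference; in the block with only the libraries compared the difference gave 1009 (481 and 528). A fit of only the 6 libraries called 7346 (4034 and 3312).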

Other observations

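Of 19 ER chaperones and Xbp1 targets, 6 were lower and 3 higher at 12 h than at 6 h without cytokines (median -0.20): Dnajb9, a co-chaperone of BiP, had 13.5, 13.9 and 13.3 CPM at 12 h, against 30.2, 30.6 and 36.6 CPM at 6 h (-1.22 ± 0.16, limma adjusted p = 3.31e-08), and Herpud1, of ER-associated degradation, was higher (0.51 ± 0.12); the 6 became 3 without the 6 h library of course 1 and 10 in a fit of the 6 libraries alone. Of 22 heat shock proteins and chaperonins, 2 were higher and 1 lower, Bag3 (-0.74 ± 0.16), where the 6-library fit called 10 and 8. The lowest log2 change of the list, -2.28, was that of a member that was not called. The 2 called higher became 0 without the 12 h library of course 2. They became 1 without the 12 h library of course 1 or the 6 h library of course 2 or 3. In the BCL2 family, 3 of 14 were higher and 3 lower, where 19.7% of all tested genes were higher and 15.5% lower. The survival gene Bcl2l2 (0.79 ± 0.19) and the killer Bak1 (0.32 ± 0.10) were among the higher, and Bid (-0.49 ± 0.13) among the lower. With only the 6 libraries fitted, 9 were lower.

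Amino acid stress genes had 2 of 13 higher and 2 lower, where 19.7% of all tested genes were higher and 15.5% lower. The proline enzyme Pycr1 had 15.6, 13.5 and 12.8 CPM at 12 h, against 40.8, 33.4 and 35.1 CPM at 6 h (-1.35 ± 0.18). Of the list, 0 were higher without either library of course 2, and 1 without the 12 h library of course 1. Of 29 interferon response genes, 3 were higher and 6 lower (median -0.23), against the same shares of all tested genes. Isg20, an exonuclease, had 2.51, 3.06 and 3.92 CPM at 12 h and 8.65, 10.2 and 11.4 CPM at 6 h (-1.54 ± 0.28). Bst2, or tetherin, was higher (0.54 ± 0.16). The 6-library fit called 5 and 10. The list's median relative to 0 h was -3.19 at 12 h and -3.20 at 6 h.

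Motifs were also counted in promoters of 3 other lists. The MYC and MAX E-box, CACGTG, stood in 8 of 30 (26.7%) ribosome biogenesis genes with a RefSeq promoter, against 8.09% of all genes, and the sterol element, TCACCCCAC, in 1 of 21 sterol and fatty acid genes, against 0.614%. The interferon element was in 14 of 22 (63.6%) interferon response genes, against 3.99%.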
